A study of Mus musculus with 8 samples.

Results

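The cytosolic ribosomal protein genes were followed in mouse colon organoids treated with fecal supernatants. The genes were taken by symbol, as every symbol of the count table made of Rpl or Rps and a number, with an optional a, x, l, al or l1, together with Rplp0, Rplp1, Rplp2 and Rpsa, so that pseudogene symbols with the ending -ps and the Rps6k kinases dropped out. The rule found 85 of 29234 symbols, 52 for the large and 33 for the small subunit, and 9 of the 85 are paralogs named after another member. The rule itself uses symbols and no measured value, although the genes were taken up with earlier results of these data known. The organoids are epithelial structures grown in Matrigel from colon crypts of wild type (WT) mice. They received microbe-free fecal supernatant at 4 mg/mL, either from mice given dextran sodium sulfate, an agent that injures the colon epithelium (FS_DSS, n = 4), or from healthy mice (FS_CTR, n = 4), and the labels give a time of 5 days. Supernatants were prepared from pooled feces. Whether the 4 samples of a condition were separate cultures or animals is stated in no source used here, and the p values therefore reflect the spread among these samples, possibly a technical one.

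A ribosome is built from ribosomal RNA and about one copy of each ribosomal protein, so that the genes of both subunits are known to be expressed in step. Many of their mRNAs begin with a cytosine followed by a run of pyrimidines, the terminal oligopyrimidine tract, through which mTOR signaling controls their translation. In the intestine, cells at the crypt base that proliferate are known for high ribosome production, and several ribosomal proteins also act outside the ribosome.

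RNA was sequenced in stranded libraries. Estimated counts assigned to genes had totals of 26363942 to 27035243 in FS_DSS libraries and 18968416 to 26707846 in FS_CTR libraries. Of the 8 libraries, FS_CTR replicates 3 and 4 differed most from the rest. The 13 mitochondrially encoded protein genes took 38.7% and 33.3% of their counts, and 2.83% to 6.98% elsewhere, and each main result is therefore also given without both. Values are counts per 1000000 after scaling by edgeR's TMM factors (CPM). A filter on low counts kept 12729 genes for edgeR's quasi-likelihood test. Epithelial markers (Epcam, Cdh1, Krt8, Krt18, Krt20 and Vil1) summed to 12800 to 14500 CPM in FS_DSS libraries and 11200 to 14600 CPM in FS_CTR libraries. Those of fibroblasts, immune cells, endothelium, and glia and neurons summed to at most 3.04 CPM in any library, with the macrophage marker Adgre1 at 0.

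Ribosomal protein genes were lower in organoids treated with FS_DSS as a group. Of the 80 members that passed the filter, 79 had a negative log2 fold change (FS_DSS over FS_CTR), with a median of -0.76 beside -0.02 for all genes tested and a range from -1.37 to 0.10. In bulk samples such as these, fewer cells of a type and less RNA per cell cannot be told apart. A negative value was found for 52.5% of all genes. At an unadjusted p under 0.05, 73 of the 80 were lower and 0 higher, beside 13.4% of all genes tested lower and 10.6% higher. At the study's thresholds, which add a log2 fold change of at least 0.58 in size, 60 were lower and 0 higher, against a background of 6.46% lower and 2.56% higher. For 69 members all 4 FS_DSS libraries lay below all 4 FS_CTR libraries, which held for 7.58% of all genes, and the reverse, found for 7.41% of all genes, was seen for 0 members. After Benjamini-Hochberg adjustment of the edgeR p values over the whole table, 0 members and 0 of all genes were under 0.05, and no member is therefore said to have changed. These p values came from a fit on condition alone. In a further fit the replicate numbers of the conditions were taken as pairs, although no source used here says what they stand for. This choice came from these same data, in which same-numbered libraries deviated together from their group means, as did some libraries of unlike number. With the number as a block in edgeR, 49 members passed an adjusted p of 0.05, all lower, beside 1.41% of all genes lower and 0.534% higher. At an unadjusted p under 0.05 the block fit had 76 members lower and 0 higher (16.2% and 14.7% of all genes). DESeq2 called 69 members lower and 0 higher at an adjusted p under 0.05 (6.22% and 5.04% of all genes), and limma-voom called 0.

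The difference was smaller without the libraries that stood apart. When FS_CTR replicates 3 and 4 were left out, the median log2 fold change of the 80 members was -0.47 beside 0.00 for all genes, and 79 of the 80 were negative. At an unadjusted p under 0.05, 58 were lower and 0 higher (10.9% and 9.42% of all genes), and 11 lower and 0 higher also met the fold change threshold (5.35% and 2.86%). Every FS_DSS library lay below FS_CTR replicates 1 and 2 for 72 members, beside 18.9% of all genes. Leaving out FS_CTR replicate 1 alone instead gave 68 members lower and 0 higher at an adjusted p under 0.05 (5.34% and 3.9% of all genes), where leaving out any other single library gave 0.

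Over whole libraries, the 85 genes held 1.98%, 2.55%, 2.93% and 2.67% of all counts in FS_DSS replicates 1 to 4, against 3.37%, 3.68%, 2.70% and 2.73% in FS_CTR replicates 1 to 4. The groups overlapped, because FS_CTR replicates 3 and 4 had shares as low as those under FS_DSS. With the mitochondrially encoded genes taken out of the total, the shares were 2.11%, 2.69%, 3.04% and 2.74% under FS_DSS, against 3.55%, 3.95%, 4.41% and 4.10% under FS_CTR, and the groups no longer overlapped. The size of the difference depended on the scaling. With library totals alone in place of TMM, the median of all genes moved to 0.31 and that of the members to -0.35, with 19 members lower and 0 higher at an unadjusted p under 0.05 (1.4% and 12.4% of all genes), of which 7 met the fold change threshold (1.13% of all genes lower and 9.87% higher).

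**Figure D1:**
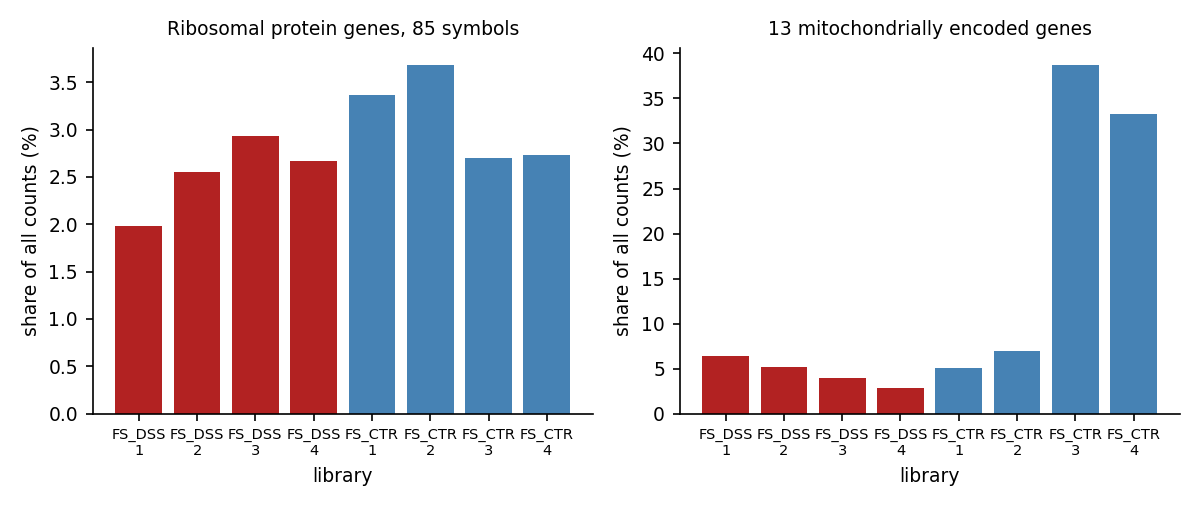
Share of all counts (%, bars from 0) held by the 85 ribosomal protein genes (left) and by the 13 mitochondrially encoded protein genes (right) in each library, FS_DSS in red and FS_CTR in blue. FS_CTR 3 and 4, with 38.7% and 33.3% mitochondrial counts, have ribosomal protein shares of 2.70% and 2.73%, below the 3.37% and 3.68% of FS_CTR 1 and 2.

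The members moved together from library to library. Relative to the FS_CTR mean of each gene, the median member stood at -1.10, -0.66, -0.49 and -0.66 on the log2 scale in FS_DSS replicates 1 to 4, and at -0.34, -0.15, 0.27 and 0.26 in FS_CTR replicates 1 to 4. FS_DSS replicate 1 held the lowest FS_DSS value for 79 of the 80 members. At the other end, FS_CTR replicates 3 and 4 both exceeded replicates 1 and 2 for 69 members, with a median difference of 0.54 on the log2 scale beside -0.02 for all genes. For neither of these counts of members was the share over all genes determined. Within same-numbered pairs, 79, 79, 77 and 77 of 80 members were lower under FS_DSS, with median log2 ratios of -0.71, -0.51, -0.77 and -0.90, while 49.5% to 51.6% of all genes were lower.

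**Figure D2:**
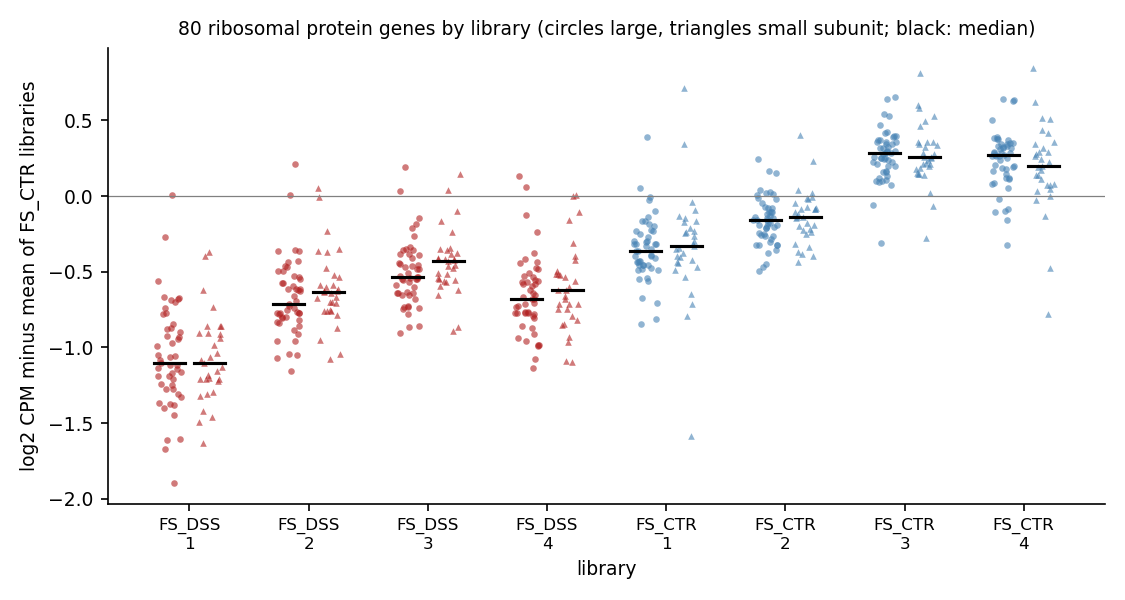
Log2 CPM of the 80 tested members minus the mean of the 4 FS_CTR libraries for the same gene, by library, with large subunit genes as circles, small subunit genes as triangles and black lines at the medians. All FS_DSS medians (-1.10 to -0.49) lie below all FS_CTR medians (-0.34 to 0.27), and FS_CTR 3 and 4 lie above FS_CTR 1 and 2.

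Among large subunit genes, 46 of 49 tested were lower at an unadjusted p under 0.05, beside 13.4% of all genes. Their median log2 fold change was -0.78. The stalk that recruits translation factors to the ribosome is formed by Rplp0, its anchor, and the dimers of Rplp1 and Rplp2. Rplp0 had 951, 1062, 1169 and 1101 CPM in FS_DSS replicates 1 to 4, against 1478, 1548, 1787 and 1728 CPM in FS_CTR replicates 1 to 4. The groups did not overlap, and the log2 fold change was -0.61 (SE 0.12, edgeR adjusted p = 0.0784, and 0.0497 with the replicate block). Rplp1 had 467, 636, 712 and 710 CPM under FS_DSS, against 760, 922, 1533 and 1408 CPM under FS_CTR, and Rplp2 had 208, 301, 325 and 315 CPM, against 329, 430, 777 and 760 CPM. Both again showed no overlap, but FS_CTR replicates 3 and 4 were far above replicates 1 and 2. Their log2 fold changes of -0.87 (SE 0.24) and -1.0 (SE 0.29) became -0.41 and -0.40 without these libraries, where that of Rplp0 became -0.50.

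Rpl13a, Rpl21 and Rpl30 were named, as Rplp0 was, for having the smallest p values of the large subunit, so their separation adds no support of its own. Rpl13a, whose human counterpart can leave the ribosome to silence inflammatory mRNAs in monocytes, had 352, 355, 382 and 394 CPM in FS_DSS libraries, against 499, 491, 642 and 628 CPM in FS_CTR libraries. The highest FS_DSS value was below the lowest FS_CTR value, with a log2 fold change of -0.61 (SE 0.12, edgeR adjusted p = 0.0784, and 0.0478 with the replicate block). Rpl21 had 183, 265, 270 and 229 CPM under FS_DSS, against 366, 362, 539 and 587 CPM under FS_CTR, a log2 fold change of -0.97 (SE 0.20, edgeR adjusted p = 0.0784, and 0.0503 with the block). Rpl30 had 154, 233, 223 and 218 CPM, against 305, 311, 406 and 376 CPM, a log2 fold change of -0.76 (SE 0.16, edgeR adjusted p = 0.0784, and 0.0471 with the block). Without FS_CTR replicates 3 and 4 these values were -0.42, -0.62 and -0.57. Rpl36a, next to the exit site for tRNA, had 54.3, 79.3, 99.9 and 78.7 CPM under FS_DSS, against 129, 128, 222 and 208 CPM under FS_CTR. Its log2 fold change was -1.13 (SE 0.24) with all libraries and -0.71 without FS_CTR replicates 3 and 4, the lowest of the large subunit in that setting.

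The abundant large subunit mRNAs Rpl4, Rpl3 and Rpl7a differed by nearly the same amount with and without FS_CTR replicates 3 and 4. Rpl7 and Rpl39 differed less without these libraries. Rpl4, which lines the exit tunnel for the nascent chain, had 656, 814, 872 and 786 CPM under FS_DSS, against 981, 1079, 1104 and 1036 CPM under FS_CTR. Rpl3, at the peptidyl transferase center, had 410, 548, 638 and 543 CPM, against 723, 742, 801 and 688 CPM. Neither gene overlapped between groups, and their log2 fold changes of -0.43 (SE 0.12) and -0.47 (SE 0.14) were -0.40 and -0.45 without FS_CTR replicates 3 and 4. Rpl7a, with 473 to 572 CPM under FS_DSS against 677 to 844 CPM under FS_CTR, had -0.52 and -0.51, and Rpl7, with 432 to 553 CPM against 600 to 811 CPM, had -0.54 and -0.39. Rpl39, a short protein of the exit tunnel, had 113 to 172 CPM against 196 to 332 CPM, with -0.81 and -0.44.

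Rpl5 and Rpl11 form a particle with the small rRNA of the large subunit, and when ribosome assembly is disturbed this particle binds Mdm2 and stabilizes p53. Rpl11 had 168, 225, 238 and 211 CPM under FS_DSS, against 278, 335, 449 and 444 CPM under FS_CTR. All FS_DSS libraries were below all FS_CTR libraries, and the log2 fold change was -0.84 (SE 0.18, edgeR adjusted p = 0.0784, and 0.0397 with the replicate block), or -0.54 without FS_CTR replicates 3 and 4. Rpl5 was listed at 25.1, 30.5, 34.0 and 29.1 CPM, against 31.9, 34.7, 54.9 and 55.8 CPM, a log2 fold change of -0.58 (SE 0.20) that was -0.17 without FS_CTR replicates 3 and 4. A look-alike gene of identical coding sequence held more counts than Rpl5 itself, and the split between them is uncertain.

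Among small subunit genes, 27 of 31 tested were lower at an unadjusted p under 0.05, beside 13.4% of all genes. Their median log2 fold change was -0.72. Rps4x, the X-linked gene of a small subunit protein, had the smallest p of all members. It had 427, 513, 525 and 502 CPM under FS_DSS, against 690, 795, 855 and 760 CPM under FS_CTR, which averaged 492 ± 44.1 CPM and 775 ± 69.2 CPM (SD, n = 4 each). The groups stood far apart relative to their spread, and the log2 fold change was -0.66 (SE 0.11, edgeR adjusted p = 0.0784), with adjusted p values of 0.0397 with the replicate block and 1.86e-06 in DESeq2. It was -0.59 without FS_CTR replicates 3 and 4 and -0.31 with library totals alone.

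Rps9, a protein of the entry channel for mRNA, had 313, 384, 427 and 410 CPM under FS_DSS, against 531, 555, 674 and 600 CPM under FS_CTR, with a log2 fold change of -0.62 (SE 0.13, edgeR adjusted p = 0.0784, and 0.0425 with the replicate block). Rps15a had 99.5, 136, 173 and 146 CPM, against 199, 228, 256 and 242 CPM, with -0.74 (SE 0.16, edgeR adjusted p = 0.0791, and 0.0397 with the block). Rps20, whose germline mutations in humans are linked to hereditary colorectal cancer, had 147, 216, 236 and 206 CPM, against 259, 343, 440 and 445 CPM, with -0.88 (SE 0.20, edgeR adjusted p = 0.0791, and 0.0397 with the block). None of these 3 genes, which were named for their small p values, overlapped between the groups. Without FS_CTR replicates 3 and 4 their log2 fold changes were -0.50, -0.62 and -0.58. Rps6, the target of the S6 kinases downstream of mTOR, had 327, 426, 483 and 427 CPM under FS_DSS, against 557, 608, 676 and 611 CPM under FS_CTR, with -0.56 (SE 0.13) and -0.49 in that setting.

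The mRNA with the highest CPM of the group was Rps2, another protein of the mRNA entry channel, with 1146, 1418, 1608 and 1634 CPM under FS_DSS, against 1817, 2021, 2566 and 2259 CPM under FS_CTR. Rps3, which sits beside it and also has a role in DNA repair, had 467 to 661 CPM against 680 to 1031 CPM. Both were separated between the groups, with log2 fold changes of -0.58 (SE 0.17) and -0.56 (SE 0.16), and -0.40 and -0.37 without FS_CTR replicates 3 and 4. Rps27a, made as a fusion with ubiquitin, had 253, 313, 380 and 362 CPM under FS_DSS, against 410, 439, 560 and 546 CPM under FS_CTR, with -0.58 (SE 0.16, edgeR adjusted p = 0.0962, and 0.0425 with the block), or -0.38 without FS_CTR replicates 3 and 4. Rpsa, also known as the laminin receptor precursor, ran against this order. It had 526, 705, 753 and 683 CPM under FS_DSS, against 863, 900, 561 and 490 CPM under FS_CTR, so that FS_DSS replicates 2 to 4 lay between the FS_CTR pairs and FS_DSS replicate 1 within the lower one. Its log2 fold change was -0.08 (SE 0.22) with all libraries and -0.40 without FS_CTR replicates 3 and 4, and it is 1 of 4 members with both of these libraries below FS_CTR replicates 1 and 2.

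The subunits did not separate. Their medians of -0.78 (large) and -0.72 (small) were both -0.47 without FS_CTR replicates 3 and 4. Of the large subunit genes tested 43 of 49, and of the small subunit genes 26 of 31, showed no overlap between the groups and were lower under FS_DSS, beside 7.58% of all genes. The log2 ratio of summed large to summed small subunit counts was 0.626, 0.579, 0.560 and 0.567 in FS_DSS replicates 1 to 4, against 0.582, 0.581, 0.608 and 0.661 in FS_CTR replicates 1 to 4. These values overlapped, and their means differed by -0.025 (FS_DSS minus FS_CTR), less than the spread of 0.034 between replicates.

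**Figure D3:**
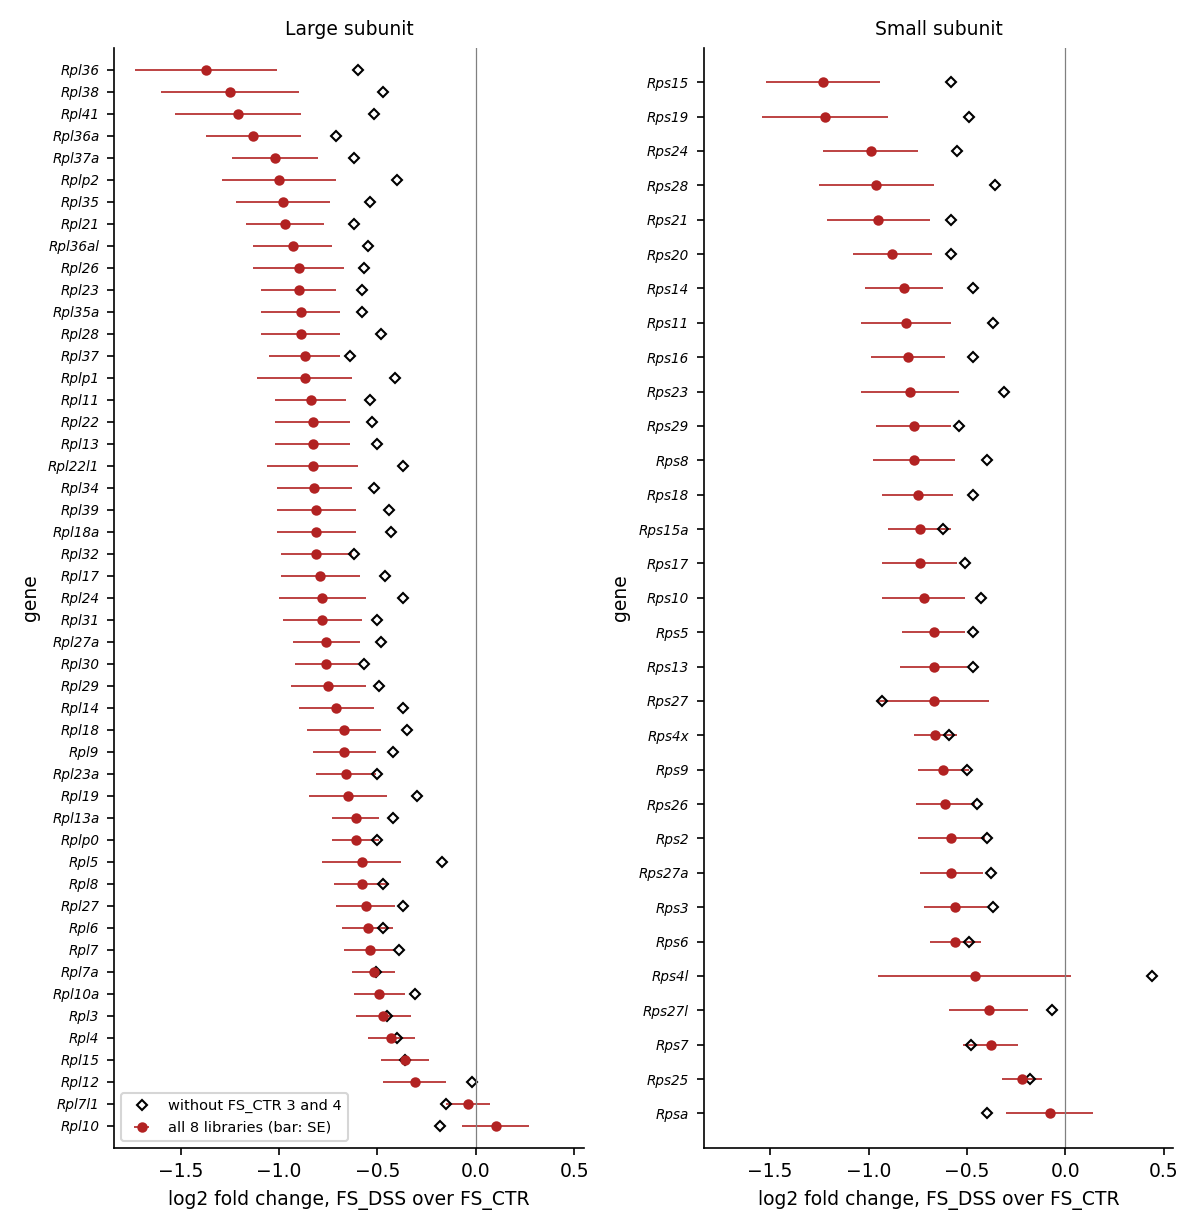
Log2 fold change (FS_DSS over FS_CTR) of the 49 large subunit genes (left) and 31 small subunit genes (right) tested, ordered by size, with all 8 libraries (red, bars are SE) and without FS_CTR 3 and 4 (open diamonds). The values run from -1.37 (Rpl36) to 0.10 (Rpl10) and lie nearer to 0 for most genes without these libraries.

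The largest differences, in genes picked after their values were seen, rested on FS_CTR replicates 3 and 4. Rpl36 had 43.1, 71.8, 85.7 and 73.0 CPM under FS_DSS, against 91.4, 116, 250 and 249 CPM under FS_CTR. Rps19, the gene most often mutated in human Diamond-Blackfan anemia, had 231, 300, 339 and 290 CPM, against 358, 457, 940 and 954 CPM. In both genes FS_CTR replicates 3 and 4 were well above replicates 1 and 2, while each FS_DSS library was still below every FS_CTR library. Their log2 fold changes of -1.37 (SE 0.36) and -1.22 (SE 0.32) were -0.60 and -0.49 without these libraries. The same was seen for Rpl38 (-1.25 and -0.47), which is needed for translation of Hox mRNAs in the mouse embryo, for Rps15 (-1.23 and -0.58) and for Rpl41 (-1.21 and -0.52), the shortest member.

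Levels within a condition spanned a wide range. Per kilobase of coding sequence, the 75 common members tested had a median of 507 CPM under FS_DSS and 836 CPM under FS_CTR, with the middle range of genes (quartiles) at 406 to 629 CPM and 690 to 1050 CPM. Rpl41 was highest, at 2071 CPM per kilobase under FS_DSS and 4809 under FS_CTR, followed by Rplp1 at 1846 and 3380. The lowest common members on this scale were Rpl5, at 33.3 and 49.7, and Rps25, at 61.5 and 71.5. The scale divides counts of whole transcripts by coding length alone, which raises the values of short coding sequences such as that of Rpl41 (138 bases). Several members, Rpl5 among them, share their coding sequence with copies elsewhere in the genome. With the counts of such copies added, Rpl5 stood at 434 and 660, and Rps25 was the lowest common member, at 61.6 and 71.6.

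For 10 tested members, over 10% of the reads that could belong to them were counted under such a look-alike gene, here a gene whose transcript matches the member's coding sequence at 95% identity or more over at least 80% of its length. For Rpl5 this was 92.7%, mainly under Gm15500, and for Rpl12, at the base of the stalk, 90.7%, under Gm10275. Rpl10, Rps27 and Rpl27a had 65.6%, 62.9% and 58.5% under Rpl10-ps3, Rps27rt and Gm7536, and Rpl28, Rps16, Rpl15, Rpl10a and Rpl31 had 15.5% to 20.5%. In each of these 10 the main look-alike matched the member at 100% identity, so the split between the genes is uncertain, and the sum is given beside the member alone.

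The sequences of Rps27 and its paralog are shown as an example of which reads can be told apart. In GRCm39, Rps27 lies on the minus strand of chromosome 3 (chr3:90119819-90120977) and Rps27rt on the minus strand of chromosome 9 (chr9:114811434-114811807), and their 252 coding bases have 0 differences. The paralog Rps27l, a p53 target in human cells, lies on the plus strand of chromosome 9 (chr9:66853340-66856808) and differs from Rps27 at 60 of the 252 coding bases (76.2% identity). The first 120 coding bases of each follow, with the 28 bases of Rps27l that differ from Rps27 in capitals.
Rps27: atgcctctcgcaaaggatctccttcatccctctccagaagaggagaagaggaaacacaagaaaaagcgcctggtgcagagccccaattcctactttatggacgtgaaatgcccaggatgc
Rps27l: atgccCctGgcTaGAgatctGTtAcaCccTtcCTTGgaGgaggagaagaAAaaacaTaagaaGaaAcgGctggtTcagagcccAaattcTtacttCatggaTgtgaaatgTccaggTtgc
Reads from Rps27l can thus be told from the pair by these differences, while those within the coding sequence of Rps27 and Rps27rt cannot.

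Counted alone, Rps27 had 44.1, 52.7, 50.4 and 34.7 CPM under FS_DSS, against 111, 62.4, 77.2 and 39.4 CPM under FS_CTR. The groups overlapped, and the log2 fold change was -0.67 (SE 0.28, edgeR adjusted p = 0.185), or -0.93 without FS_CTR replicates 3 and 4 and -0.39 without FS_CTR replicate 1. With the look-alike counts added, the values were 117, 132, 133 and 106 CPM under FS_DSS, against 178, 220, 237 and 232 CPM under FS_CTR. The groups no longer overlapped, with a log2 fold change of -0.83 (edgeR adjusted p = 0.0623).

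Rpl10, which joins the large subunit late in its assembly, was the only member with a positive log2 fold change when counted alone. It had 203, 234, 231 and 222 CPM under FS_DSS, against 265, 240, 163 and 162 CPM under FS_CTR, a log2 fold change of 0.10 (SE 0.17). Together with its look-alikes it had 482, 578, 614 and 577 CPM, against 727, 802, 808 and 757 CPM. The sum was lower in every FS_DSS library than in every FS_CTR library, at a log2 fold change of -0.46 (edgeR adjusted p = 0.0803). Rpl12 had 375, 513, 605 and 569 CPM with its look-alikes under FS_DSS, against 733, 829, 1092 and 1110 CPM under FS_CTR, and its log2 fold change was -0.31 (SE 0.16, or -0.02 without FS_CTR replicates 3 and 4) alone and -0.87 jointly (edgeR adjusted p = 0.0793). For Rpl5 the joint values were 307, 416, 454 and 371 CPM, against 512, 574, 635 and 631 CPM, with -0.58 alone and -0.60 jointly. Of the 10 genes, all but Rpl15 were lower without overlap between the groups in the joint count. Without added counts, this held for 7.58% of all genes. Rpl15 showed no overlap when counted alone (-0.36, SE 0.12), but the groups overlapped in its joint count (-0.32).

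Of the 85 members, 5 did not pass the filter. Rpl10l and Rpl39l, known from male germ cells, and Rps12l1 were at 0 in all libraries, and Rpl3l, known from muscle, had 3 counts in all. Rps12, a common small subunit gene, was listed with 3, 3, 4 and 5 counts under FS_DSS, against 5, 2, 6 and 6 counts under FS_CTR. Its look-alike Rps12-ps3, which matches 86.5% of the coding sequence at 100% identity, had 889 and 1106 counts in FS_CTR replicates 3 and 4 and 0 in the other 6 libraries. No comparison of Rps12 is drawn from these values. Rps3a1, a common small subunit gene whose symbol falls outside the rule, had 377, 478, 517 and 473 CPM under FS_DSS, against 636, 698, 762 and 708 CPM under FS_CTR, with a log2 fold change of -0.60 (SE 0.12, edgeR adjusted p = 0.0784, and 0.0438 with the replicate block).

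Paralogs and the genes they are named after could be compared in 5 pairs. Among the 5 paralogs 2 were lower at an unadjusted p under 0.05 (median log2 fold change -0.46), beside 13.4% of all genes. Among their 5 partners all 5 were (median -0.67). The median difference over the pairs (paralog minus partner) was 0.21, but it was -0.03 without FS_CTR replicate 1 and 0.41 without FS_CTR replicate 4, so it held no stable direction.

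Rpl7l1 formed the only pair whose ratio did not overlap between the groups. It had 64.5, 78.3, 79.5 and 81.0 CPM under FS_DSS, against 80.8, 87.2, 74.7 and 69.7 CPM under FS_CTR, a log2 fold change of -0.04 (SE 0.11), where Rpl7 had -0.54 (SE 0.13). The log2 ratio of Rpl7l1 to Rpl7 was -2.74, -2.74, -2.80 and -2.62 under FS_DSS, against -2.89, -3.04, -3.44 and -3.48 under FS_CTR. All 4 FS_DSS ratios were above all 4 FS_CTR ratios, and the difference between the log2 fold changes was 0.49 with all libraries and 0.25 without FS_CTR replicates 3 and 4. No test was made of this ratio.

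The other 4 pairs overlapped between the groups. Rpl22l1, which can replace Rpl22 in the ribosome, had 31.3, 42.2, 45.0 and 33.5 CPM under FS_DSS, against 46.4, 52.0, 87.5 and 85.4 CPM under FS_CTR, and Rpl22 had 78.9, 106, 125 and 104 CPM, against 137, 163, 222 and 213 CPM. Both had a log2 fold change of -0.83, with SE of 0.23 and 0.19, while without FS_CTR replicates 3 and 4 Rpl22l1 had -0.37 and Rpl22 -0.53. Rpl36al had 56.3 to 72.3 CPM against 81.9 to 154 CPM, with -0.93 (SE 0.20) beside -1.13 for Rpl36a, or -0.55 and -0.71 without FS_CTR replicates 3 and 4. Its log2 ratio to Rpl36a was -0.51 to 0.05 under FS_DSS, against -0.65 to -0.21 under FS_CTR. Rps27l had 70.1, 98.4, 108 and 118 CPM under FS_DSS, against 101, 107, 148 and 163 CPM under FS_CTR, with -0.39 (SE 0.20), which was -0.07 without FS_CTR replicates 3 and 4.

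Rps4l was the rarest and most variable member tested, with 110, 253, 265 and 259 counts in FS_DSS libraries, against 88, 242, 179 and 230 counts in FS_CTR libraries. In CPM it had 3.69, 8.31, 8.61 and 8.36 under FS_DSS, against 2.79, 7.95, 14.7 and 15.0 under FS_CTR. Replicate 1 of both conditions was low, and the groups overlapped, with a log2 fold change of -0.46 (SE 0.49) that was 0.44 without FS_CTR replicates 3 and 4.

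**Figure D4:**
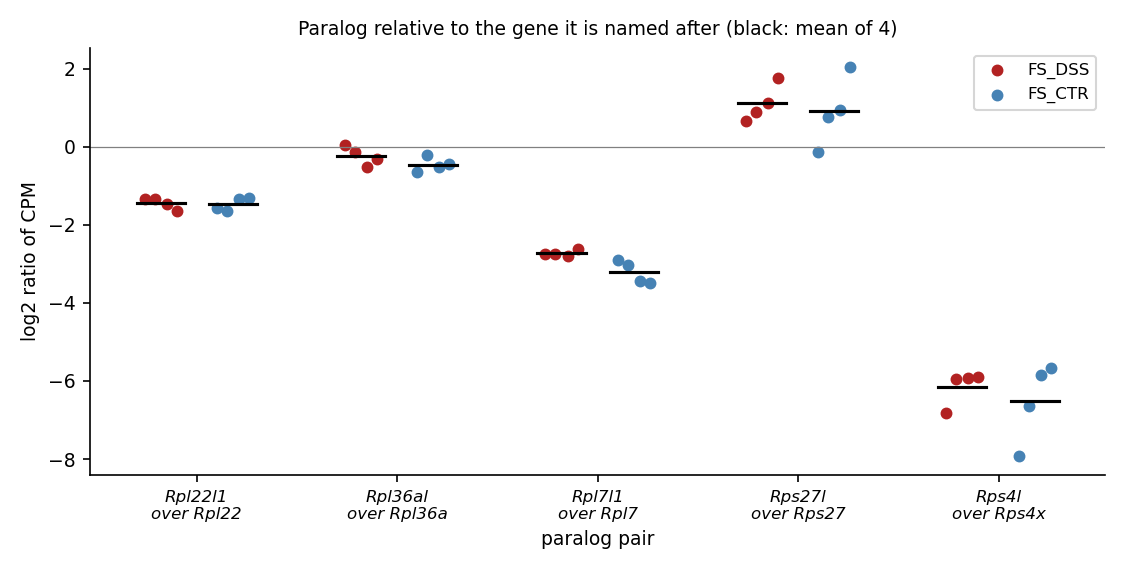
Log2 ratio of the CPM of a paralog to that of the gene it is named after in each library, FS_DSS (red) left of FS_CTR (blue), with black lines at the means of 4 libraries. The Rpl7l1 over Rpl7 ratios do not overlap (-2.80 to -2.62 under FS_DSS, against -3.48 to -2.89 under FS_CTR), and those of the other 4 pairs do.

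The members are short genes, and short genes as a class were lower under FS_DSS. The median coding length was 462 bases for the members tested (138 to 1257) and 1410 bases for the other tested genes with a known coding length. Across genes, which are not independent replicates and share the same 8 libraries, Spearman's rho between log2 fold change and coding length was 0.63 for the 80 members and 0.32 for 11546 other genes, and 0.39 and 0.15 without FS_CTR replicates 3 and 4. Of 859 other genes of up to 500 coding bases, 37.6% were lower at an unadjusted p under 0.05, with a median log2 fold change of -0.31, where the 48 members of that length had a median of -0.81 and 45 were lower. From 500 to 1000 bases, 2655 other genes had a median of -0.14 and the 30 members -0.60. Without FS_CTR replicates 3 and 4, the medians were -0.50 for members and -0.12 for other genes up to 500 bases, and -0.42 and -0.05 from 500 to 1000 bases. Members were therefore lower than other genes of their length class in both settings, by a smaller margin than against all genes, and the part of RNA length in the result was not tested further.

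**Figure D5:**
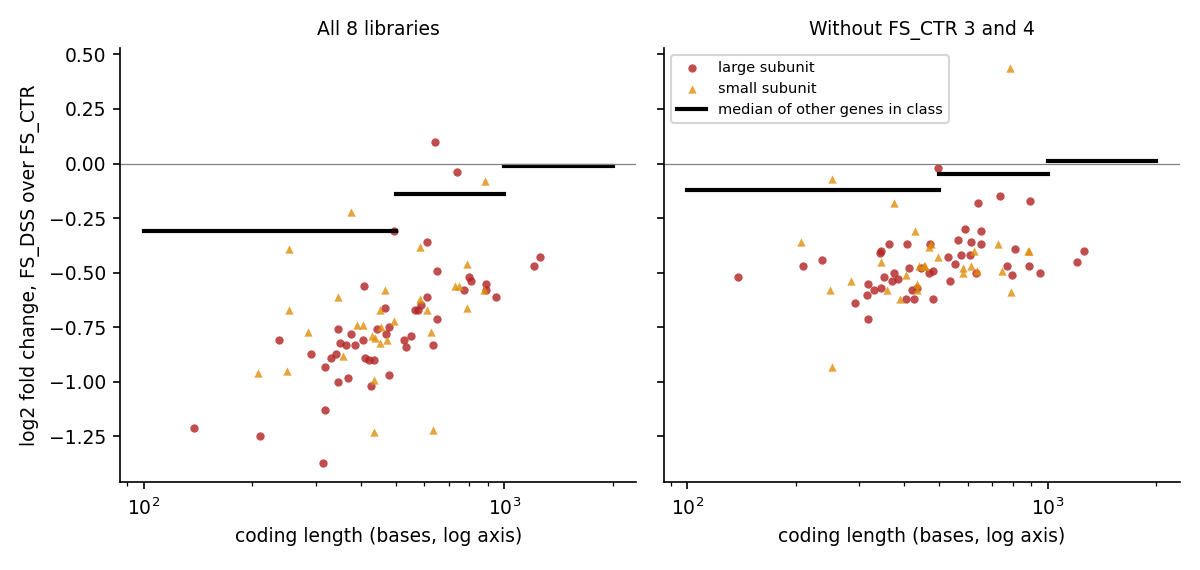
Log2 fold change (FS_DSS over FS_CTR) against coding length (log axis) of the 80 members, with all 8 libraries (left) and without FS_CTR 3 and 4 (right), where black lines are medians of all other genes in the same length class. Members up to 500 bases have a median of -0.81 (left) and -0.50 (right), below the -0.31 and -0.12 of other genes of that length.

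Sequences around the annotated start of transcription were looked up because the members share known start features. RefSeq promoter windows (build GRCm38.p6) were matched by symbol for 63 of the 85 members. A cytosine followed by at least 4 pyrimidines at the start was found for 13 of the 63 (20.6%), beside 3.01% of 27025 genes, and a run of 8 or more pyrimidines within 20 bases of the start for 30 (47.6%), beside 18.4%. In the window from 250 bases before to 50 bases after the start, CCGGAAG on either strand, the core of an ETS site, was present for 25 (39.7%, beside 9.93% of genes), and AAGATGGC, the core of a YY1 site, for 6 (9.52%, beside 3.19%). These are letter matches and depend on where RefSeq places the start. The 60 bases from 40 before to 20 after the start are given for 4 members with the tract, whose pyrimidine run from the first transcribed base on is in capitals, and for Rps4x, which has none at its annotated start.
Rps6, chr4:86857348-86857407, minus strand: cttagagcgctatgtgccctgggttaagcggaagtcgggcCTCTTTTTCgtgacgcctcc
Rps15a, chr7:118116128-118116187, minus strand: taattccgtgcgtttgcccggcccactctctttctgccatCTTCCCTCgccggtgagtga
Rps27, chr3:90213629-90213688, minus strand: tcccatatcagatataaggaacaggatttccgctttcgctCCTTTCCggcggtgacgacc
Rplp2, chr7:141447611-141447670, plus strand: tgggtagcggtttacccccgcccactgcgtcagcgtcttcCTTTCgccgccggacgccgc
Rps4x, chrX:102189372-102189431, minus strand: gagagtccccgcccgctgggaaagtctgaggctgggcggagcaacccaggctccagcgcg
The 13 members with the tract, all tested, had a median log2 fold change of -0.75 (-1.25 to -0.36), and the 46 tested members without it at their annotated start had -0.67 (-1.23 to 0.10). Without FS_CTR replicates 3 and 4 the medians were -0.48 and -0.47.

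Genes of other cytosolic ribosome proteins, and most of those of the separate mitochondrial ribosome, differed in the same direction. Fau, a ubiquitin-like fusion that yields a small subunit protein, had 174, 242, 240 and 238 CPM under FS_DSS, against 242, 312, 590 and 627 CPM under FS_CTR, with a log2 fold change of -0.99 (SE 0.30, edgeR adjusted p = 0.109) that was -0.31 without FS_CTR replicates 3 and 4. Rack1, a signaling scaffold on the small subunit that the table lists as Gnb2l1, had 583 to 785 CPM under FS_DSS against 879 to 1002 CPM under FS_CTR (-0.42, SE 0.12). Of 76 mitochondrial ribosomal protein genes tested, 48 were lower and 0 higher at an unadjusted p under 0.05, beside 13.4% and 10.6% of all genes, with a median of -0.36. For 35, every FS_DSS library was below every FS_CTR library, beside 7.58% of all genes. The smallest p values were those of Mrpl4, with 28.9, 32.0, 28.9 and 27.7 CPM under FS_DSS against 38.0, 41.6, 48.6 and 45.3 CPM under FS_CTR (-0.56, SE 0.10), and Mrps12, with 16.7 to 19.8 CPM against 24.5 to 32.2 CPM (-0.60, SE 0.12). With the replicate block, 4 of the 76 were lower at an adjusted p under 0.05 in edgeR, beside 1.41% of all genes. Without FS_CTR replicates 3 and 4, 26 were lower (10.9% of all genes) and the median was -0.25, beside -0.47 for the cytosolic members.

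Other genes known for an oligopyrimidine start include elongation factors, Pabpc1, Tpt1 and Npm1. Of 21 tested, 10 were lower and 0 higher at an unadjusted p under 0.05, beside 13.4% and 10.6% of all genes, with a median log2 fold change of -0.28, and -0.19 without FS_CTR replicates 3 and 4. Eif3f, a subunit of an initiation factor, had 212 to 251 CPM under FS_DSS against 284 to 318 CPM under FS_CTR (-0.40, SE 0.09), and Eef1b2, a subunit of an elongation factor, had 201 to 288 CPM against 325 to 383 CPM (-0.47, SE 0.13). With the block, 1 of the 21, Eif3k (-0.40, SE 0.15, and -0.17 without FS_CTR replicates 3 and 4), was lower at an adjusted p under 0.05 in edgeR, beside 1.41% of all genes. Of 12 chaperones and nuclear import receptors of ribosomal proteins, 2 were lower and 2 higher, which is near the shares of all genes (13.4% lower and 10.6% higher), with a median of 0.02. The lower ones were Bccip (-0.38, SE 0.11) and Tsr2, the escort of Rps26 in yeast (-0.44, SE 0.18). The higher ones were the importins Tnpo1, with 227, 205, 178 and 184 CPM under FS_DSS against 186, 156, 136 and 134 CPM under FS_CTR (0.38, SE 0.13), and Kpnb1, with 371 to 392 CPM against 298 to 362 CPM (0.23, SE 0.09). Without FS_CTR replicates 3 and 4 these were 0.21 and 0.12, and 0 of the 12 were higher at that threshold. In edgeR, 0 of these 12 genes were under an adjusted p of 0.05, with or without the replicate block.

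Markers of stem cells, and those of cycling cells and colonocytes, differed in the same direction as the ribosomal protein genes. Those of goblet cells (Muc2, Tff3, Fcgbp and Clca1) and enteroendocrine cells (Chga, Chgb and Neurod1) did not. Their median log2 fold changes were 0.23 and 0.5, and 0.29 and -0.03 without FS_CTR replicates 3 and 4. At an unadjusted p under 0.05, 1 of 4 and 0 of 3 were higher, beside 10.6% of all genes. The summed level of Lgr5, Ascl2, Axin2 and Smoc2 was 22.2 to 70.2 CPM in FS_DSS libraries, against 63.3 to 167 CPM in FS_CTR libraries. Of the 4, 3 were lower at an unadjusted p under 0.05, beside 13.4% of all genes. The summed level of the cycling genes Mki67, Top2a, Pcna, Mcm2 and Ccnb1 was 156 to 393 CPM, against 230 to 500 CPM, with 0 of 5 past that threshold (median log2 fold change -0.31). Without FS_CTR replicates 3 and 4, 4 of 4 stem markers and 2 of 5 cycling genes were lower (medians -1.54 and -0.85), beside 10.9% of all genes. With the replicate block 4 of 4 and 3 of 5 were, beside 16.2% of all genes. The colonocyte markers Car1, Car4, Slc26a3 and Aqp8 summed to 2370 to 4590 CPM under FS_DSS, against 3480 to 5620 CPM under FS_CTR. All 4 had a negative log2 fold change (median -0.70, and -0.57 without FS_CTR replicates 3 and 4). Of the 4, 1 was lower at an unadjusted p under 0.05, and 2 with the block (13.4% and 16.2% of all genes). The part of these markers, and of the mitochondrial share, in the ribosomal protein result was not tested. By library, the colonocyte sums were 4040, 4590, 3290 and 2370 CPM in FS_DSS replicates 1 to 4. In FS_CTR replicates 1 to 4 they were 3480, 4620, 4370 and 5620 CPM. FS_DSS replicate 4 had the lowest stem and cycling sums (22.2 and 156 CPM). FS_DSS replicate 1 had the lowest member levels and the highest of these sums under FS_DSS (70.2 and 393 CPM). In FS_CTR replicates 1 to 4 the stem sums were 167, 104, 78.5 and 63.3 CPM, and the cycling sums 500, 458, 266 and 230 CPM. The median member there stood at -0.34, -0.15, 0.27 and 0.26 relative to the FS_CTR mean, on the log2 scale.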

How the data were processed

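RNA of 8 colon organoid samples, 4 treated with FS_DSS and 4 with FS_CTR, was analyzed, and condition and replicate number were taken from the labels. Salmon 1.10.1 on GRCm39 was used by the authors, with tximport, to obtain the deposited table of estimated counts by gene symbol. The counts were whole numbers, to which the later normalization by the authors with DESeq2 1.36.0 had not been applied. The transcriptome release and strand setting were not given in the sources used here. Columns of no mapped sample numbered 0.

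The fit was made on the whole table in R 4.3.3 with the quasi-likelihood test of edgeR 4.0.16 on condition alone. TMM scaling and filterByExpr (12729 of 29234 genes kept) came before it and Benjamini-Hochberg adjustment after it. A run on simulated counts used the same dispersion for every gene and no libraries that stood apart, so it does not vouch for the fit on these data. CPM on the log2 scale used a prior count of 2, and SE was approximated from the log2 fold change and its F statistic. Precision was limited by the number of libraries. Gene positions and coding lengths came from GENCODE vM39 on GRCm39, look-alikes from blastn 2.17.0 of the members' coding sequences against all transcripts, and promoter windows from RefSeq. Further tables were made with Python 3.11.15, pandas 2.3.3 and numpy 2.4.6.

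The members, lists and tests were chosen with earlier results of these data known. Named were the genes of all paralog pairs, the 4 members of each subunit with the smallest p in each direction, the 5 with the highest CPM in each subunit, the stalk genes, Rpl5, Rpl11, Rps27a, Rpsa and the member of widest range, and of the other lists Fau, Rack1 and 2 genes per direction with the smallest p. Rpl36, Rpl38, Rpl41, Rps15, Rps19, Rps25, Rps12, Rps3a1, Eif3k and the members with look-alikes other than those were named after their values were seen. One further gene of that rule is not reported here. Sums and ratios over members were described without a test.

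Alternatives were DESeq2 size factors, library totals, TMM without mitochondrially encoded or without ribosomal protein genes, no filter, a minimum of 10 counts per sample, the tests of DESeq2 1.42.0 and limma-voom (limma 3.58.1), a block for the replicate number, leaving out each library, and adding the counts of -ps symbols. Leaving out FS_CTR replicates 3 and 4 together and adding look-alike counts were chosen after seeing the data. Libraries with the same number deviated together from their group means (correlations of 0.352, 0.221, 0.154 and 0.226, all above 0.1). The numbers were therefore treated as pairs in the block fit, although no source used here says what they stand for. Some libraries of unlike number also passed 0.1. FS_DSS replicate 4 and FS_CTR replicate 3 correlated at 0.188, above the 0.154 of the pair numbered 3. FS_DSS replicate 1 and FS_CTR replicate 2 correlated at 0.142.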

Additional observations from a re-analysis of the deposited data

Results flagged for a closer look

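In 76 groups of 4 libraries examined, 3 held a library whose gap to the nearest other exceeded Dixon's 95% limit, where chance flags about 1 in 20 groups, and all 3 concern FS_DSS replicate 1. Rpl7l1 was at 64.5 CPM there, against 78.3 to 81.0 CPM in the other FS_DSS libraries. Rps4l was at 3.69 CPM, against 8.31 to 8.61 CPM. The log2 ratio of Rps4l to Rps4x was -6.83, against -5.94 to -5.90, and rests on the same Rps4l value. FS_DSS replicate 1 was also the lowest FS_DSS library for 79 of 80 members, a count for which the share over all genes was not determined. The FS_CTR library with the same number had the lowest Rps4l level of its condition, at 2.79 CPM.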

How the results depend on the processing

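Of the results over the members as a whole, the direction was kept under every alternative run with 2 exceptions, while the difference between subunit medians went to 0 in 1 setting. The exceptions were the difference between paralogs and their partners and the log2 ratio of summed large to small subunit counts. Without FS_CTR replicates 3 and 4, that ratio held no direction. FS_CTR replicates 1 and 2 (0.582 and 0.581) lay within the FS_DSS range of 0.560 to 0.626. With library totals alone, 19 members were lower at an unadjusted p under 0.05 in place of 73 (1.4% and 13.4% of all genes). Those that also met the fold change threshold numbered 7 in place of 60 (1.13% and 6.46% of all genes). The median log2 fold change in that setting was -0.35 and the paralog difference 0.36. At an adjusted p under 0.05, DESeq2 called 69 members lower and the replicate block 49 (6.22% and 1.41% of all genes). At that threshold, leaving out 1 library gave 0 to 68, with 68 without FS_CTR replicate 1 (5.34% of all genes). With the block, 76 members were lower at an unadjusted p under 0.05 (16.2% of all genes). Leaving out 1 library gave 71 to 76 members lower at an unadjusted p, beside 9.02% to 17.1% of all genes. With the fold change threshold added it gave 49 to 68 members, beside 4.53% to 8.34% of all genes. Its medians were -0.85 to -0.64 and its paralog differences -0.03 to 0.41. Leaving out FS_CTR replicates 3 and 4 gave 11 members lower past both thresholds (5.35% of all genes) and a difference of 0.00 between subunit medians. Without the mitochondrially encoded genes in the total, the share of counts in members differed by -1.36 percentage points (FS_DSS minus FS_CTR), in place of -0.59. Among the single genes named by rule, the sign turned for 5. Rpl10 was at -0.46 with -ps counts or with look-alikes added and -0.18 without FS_CTR replicates 3 and 4. With library totals alone, Rpl7l1 was at 0.26, Rps27l at 0.02, Rps4l at 0.06 and Rpsa at 0.16. Rps4l was at 0.44 without FS_CTR replicates 3 and 4. Leaving out 1 library gave -0.09 to 0.03 for Rpl7l1 and -0.22 to 0.07 for Rpsa. The cause of these shifts was not tested. The 5 members below the filter on low counts were not compared.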
